A study of Mus musculus with 46 samples.

Results

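The ER stress and unfolded protein response genes described here are the 10 genes Hspa5, Hsp90b1, Calr, Dnajb9, Xbp1, Atf4, Atf6, Ddit3, Herpud1 and Trib3. They were taken by gene name from a table of 53465 mouse genes, and each name was found. The levels were measured by RNA-seq in cells sorted by flow cytometry from kidneys of male wild-type C57BL/6 mice aged 8 to 12 weeks. The 4 sorted populations were proximal tubular (PT) cells that bind the lectin LTL, F4/80+ macrophages, CD31+ endothelial cells and PDGFRB+ stromal cells. Each came from mice after sham surgery, after unilateral ureteric obstruction (UUO), in which the ureter of one kidney is tied, or after reversal of the obstruction (rUUO). UUO mice were culled at day 2 or day 7 and rUUO mice 14 days after reversal, and the sample labels do not say which UUO samples are of which day. In sham, UUO and rUUO order the values come from 3, 4 and 3 PT samples, 4, 4 and 3 macrophage samples, 4, 3 and 4 endothelial samples and 4, 4 and 4 stromal samples, or 44 in all. No group carries a transgene or a drug by the labels, and the 4 populations differ in the marker used to sort them.

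The endoplasmic reticulum (ER) folds and checks the proteins that a cell secretes or places in its membranes. When unfolded proteins build up there, several sensors in the ER membrane start the unfolded protein response (UPR). IRE1 splices Xbp1 mRNA so that it encodes an active transcription factor, PERK slows translation while favouring that of ATF4, and ATF6 moves to the Golgi apparatus, where it is cut to release a transcription factor. Their targets include ER chaperones, factors that send misfolded proteins to degradation, and Ddit3, which encodes the factor CHOP. In the kidney, ER stress has been described in injured tubular cells, and stromal cells that secrete matrix depend on ER folding capacity. The table gives 1 level per gene, so that neither the splicing of Xbp1 nor the translation of Atf4, nor the cleavage of ATF6 can be read from it.

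The ER stress element (ERSE), which ATF6 and spliced XBP1 can bind, joins the letters CCAAT and CCACG with 9 bases between them. RefSeq promoter sequences on GRCm38.p6, from 250 bases before to 50 after the gene start, were matched for 9 of the 10 genes, Atf6 being the one without a match. Read on both strands, an ERSE stood in 3 of these 9 promoters, against 39 (0.119%) of 32851 promoters in all. They belong to Hspa5, Hsp90b1 and Calr, the most abundant genes of the 10. ERSE-II, which has ATTGG and CCACG 1 base apart, stood in the Herpud1 promoter and in 12 promoters in all (0.0365%). The core TTGCATCA of the amino acid response element, which ATF4 can bind, was found in the Herpud1 promoter and in 294 promoters in all (0.895%). The core TGACGTGG of the UPR element was in none of the 9 and in 222 of all promoters (0.676%). The short letters CCAAT alone were in 7 of the 9 and in 37.4% of all promoters, and CCACG alone in 6 of the 9 and in 32.8%; both are contained in the longer motifs. The promoter stretches with the long motifs are shown for the 4 genes that held them. Each is written 5′ to 3′ on the strand of its gene, and capitals mark the motif letters.
Hspa5, chr2:34772019-34772048, plus strand: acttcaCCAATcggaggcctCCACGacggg
Hsp90b1, chr10:86705510-86705659, minus strand: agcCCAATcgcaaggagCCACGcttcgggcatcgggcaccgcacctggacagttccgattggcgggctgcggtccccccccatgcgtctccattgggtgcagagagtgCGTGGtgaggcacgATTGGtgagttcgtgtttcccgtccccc
Calr, chr8:84846947-84847146, minus strand: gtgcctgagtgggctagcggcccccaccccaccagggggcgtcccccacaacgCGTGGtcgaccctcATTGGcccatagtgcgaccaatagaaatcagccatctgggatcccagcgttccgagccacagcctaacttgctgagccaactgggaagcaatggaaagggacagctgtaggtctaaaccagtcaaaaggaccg
Herpud1, chr8:94386214-94386413, plus strand: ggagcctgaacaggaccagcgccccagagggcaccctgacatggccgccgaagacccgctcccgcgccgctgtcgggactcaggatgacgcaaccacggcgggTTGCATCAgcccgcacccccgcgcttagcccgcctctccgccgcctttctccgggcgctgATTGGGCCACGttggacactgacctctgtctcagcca
In Hspa5 the ERSE ran from 65 to 47 bases before the RefSeq start. Hsp90b1 held 2, the nearer to the start on the opposite strand to the gene, and the ERSE of Calr was also on the opposite strand. The Hspa5 stretch shown lies inside the gene span given for Hspa5 below, which starts before the RefSeq start. A match is a description of the letters and does not show that a factor was bound in these cells.

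Levels are given as deposited, in FPKM, the number of fragments scaled to transcript length and to the total of the library, which allows genes to be compared with each other. The FPKM sum per sample was 586929 to 884982, and 9502 to 14464 genes reached 1 FPKM. No counts were given, so that the absolute depth is unknown; read from how finely the low values were spaced, it ranged from 0.584 to 1.60 relative to the median sample. The 37 genes of the mitochondrial genome took 68.9 to 75.6% of the FPKM sum in PT sham and 58.7 to 66.4% in PT UUO samples. In stromal samples they took 34.0 to 45.8% in sham and 21.5 to 26.4% in UUO. A gene outside the mitochondrial genome can therefore rise in FPKM when the mitochondrial share falls. In sham samples the own marker list of each population, 6 genes each, summed to 1691 to 2302 FPKM in PT cells and 6269 to 7955 FPKM in macrophages. The sums were 2432 to 3131 FPKM in endothelial cells and 1168 to 2270 FPKM in stromal cells, with no marker at 0 in every library. Thick ascending limb markers were also present in stromal and endothelial sham samples, at a summed 260 to 335 and 143 to 685 FPKM. Podocyte markers were too, at a summed 121 to 209 and 288 to 622 FPKM. In 7 of the 12 groups the same library was lowest in Hspa5, Hsp90b1 and Calr, and in each of these 7 groups it was the sample numbered 4. These were the sham and rUUO groups of PT, endothelial and stromal cells and the endothelial UUO group. Sample 4 had the highest mitochondrial share of PT sham (75.6%), endothelial sham (43.5%) and endothelial UUO (38.3%). In stromal sham it had 45.8%, against 34.0 to 35.3% in the others. In none of these rUUO groups was its share the highest. The part of this share in the low chaperone levels was not tested. In 4 other groups, PT UUO, macrophage sham and UUO and stromal UUO, the sample numbered 4 was instead the highest in Hspa5.

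In PT cells, UUO raised Xbp1, Atf4 and Atf6 and lowered Herpud1, whereas the chaperone genes Hspa5, Hsp90b1 and Calr did not pass the test. After reversal, Xbp1 and Atf6 were lower than in UUO. Changes were tested with limma on log2(FPKM + 1), with p adjusted over all genes tested in the population and a threshold of 0.05. For UUO against sham, 3 of the 9 members tested were higher and 1 was lower. Over all 11416 genes tested, 27.9% were higher and 4.91% lower. The median log2 change was 0.47 over the 9 members and 0.51 over all genes, and the all-gene median fell to 0.34 when mitochondrial genes were left out of the sum and to -0.04 with quantile normalization. Of all genes, 3186 were higher and 561 lower as deposited, against 2083 and 838 without mitochondrial genes and 1218 and 1217 with quantile normalization. For rUUO against UUO, 2 members were lower and 0 higher, where 3.15% of all genes were lower and 0.674% higher. At an unadjusted p under 0.05 there were 4 members and 2448 of all 11416 genes. That count of 2 rested on each PT library, since leaving out PT UUO 2 left 1 member and leaving out any other UUO or rUUO library left 0. The split of all genes was also unstable there, at 77 higher and 360 lower as deposited, 135 and 114 without mitochondrial genes and 211 and 148 with quantile normalization. For rUUO against sham, limma called 0 members, where 6.52% of all genes were higher and 0.946% lower (744 and 108 genes, or 508 and 232 with quantile normalization). At an unadjusted p under 0.05 there were 1 member and 2453 of all genes. All directions named here for members held when mitochondrial genes were left out and with quantile normalization, but not all calls did. The rise of Atf6 in UUO passed under neither (0.51, adjusted p = 0.221, and 0.18, adjusted p = 0.644). For rUUO against UUO, Xbp1 (-0.76, adjusted p = 0.0692) and Atf6 (-0.87, adjusted p = 0.153) did not pass without mitochondrial genes. Atf6 did not pass there with quantile normalization either (-0.68, adjusted p = 0.139).

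In macrophages, limma called no member in any comparison. At an unadjusted p under 0.05, UUO against sham had 1 member, the comparison of rUUO with sham 2 and that of rUUO with UUO 0. In the same order, 2623, 2122 and 945 of all 13332 genes tested were under it. After adjustment, 2.86% of all genes were higher and 2.13% lower in UUO than in sham. In rUUO against UUO, 0% of all genes were called in either direction, and in rUUO against sham 1.89% were higher and 1.55% lower. In endothelial cells, Xbp1 alone was called, higher in UUO than in sham and higher in rUUO than in sham, in both cases 1 of 10 members. Of all 13393 genes, 1.28% were higher and 0.702% lower in UUO than in sham, and 1.4% were higher and 0.366% lower in rUUO than in sham. Between rUUO and UUO, 0 members were called, where 0.0448% of genes were higher and 0.0149% lower. At an unadjusted p under 0.05 there were 0 members and 1369 of all genes. Without mitochondrial genes, the 171 higher and 94 lower genes of endothelial UUO against sham became 102 and 107, and with quantile normalization the 188 and 49 of rUUO against sham became 132 and 84.

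In stromal cells, UUO raised the chaperone genes Hsp90b1 and Calr together with Atf4 and Xbp1, and Hsp90b1, Calr and Xbp1 were still higher in rUUO than in sham. For UUO against sham, 4 of 9 members were higher and 0 lower, where 13.4% of all 14033 genes were higher and 13% lower. The median log2 change was 0.56 over the members and -0.07 over all genes, and the latter was -0.29 without mitochondrial genes. All-gene calls were 1881 higher and 1823 lower as deposited and 1583 higher and 2664 lower without mitochondrial genes. Under that scaling Calr (0.58, adjusted p = 0.0585) and Xbp1 (0.34, adjusted p = 0.162) no longer passed, and Ddit3 passed as lower (adjusted p = 0.0349). With quantile normalization, 1 member was called, Atf4. For rUUO against sham, 3 members were higher, where 11.6% of all genes were higher and 5.57% lower, and the medians were 0.65 over the members and 0.15 over all genes. That count was 0 both without mitochondrial genes and with quantile normalization, each of the 3 members keeping its direction, and all-gene calls went from 1626 higher and 781 lower to 1037 and 1077 and to 1207 and 1135. Between rUUO and UUO, 0 members were called, where 2.95% of all genes were higher and 1.22% lower (414 and 171 genes, or 192 and 168 with quantile normalization). At an unadjusted p under 0.05 there were 2 members and 2777 of all genes. In bulk samples of sorted cells, fewer cells of a type and less RNA per cell cannot be told apart.

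**Figure D1:**
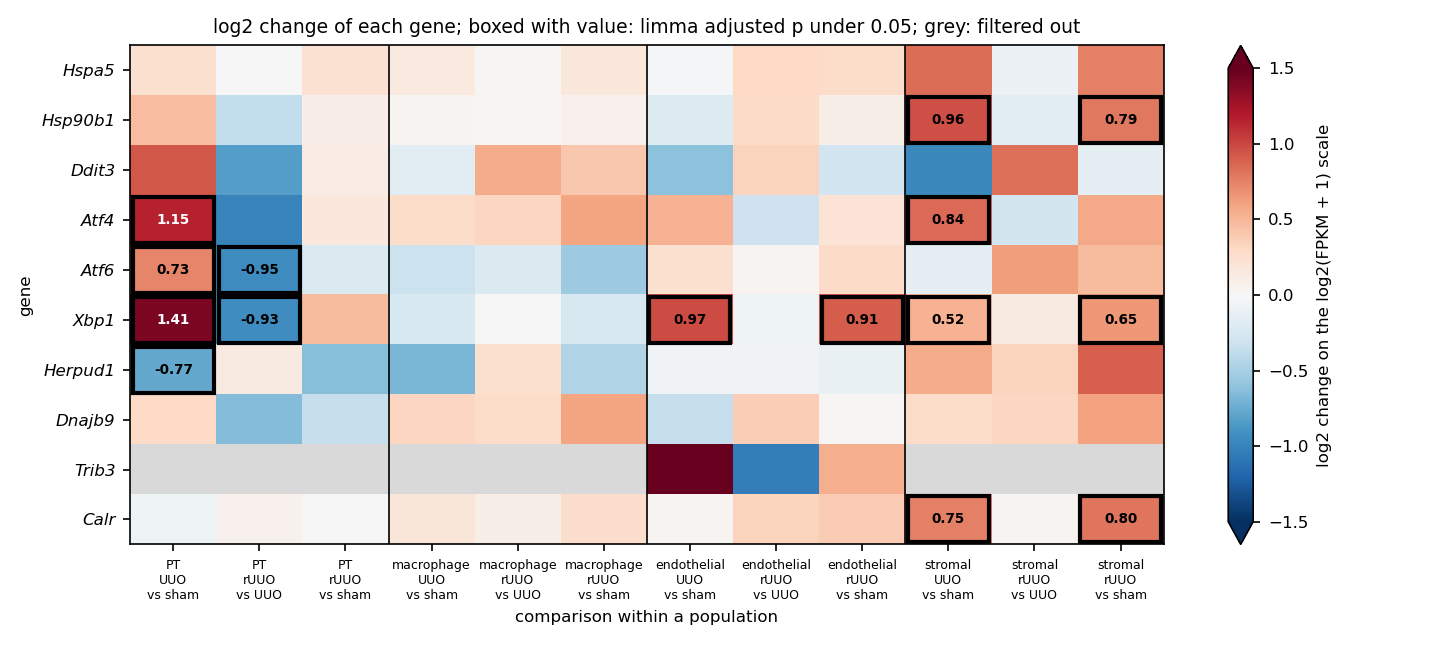
Colour shows the log2 change of each of the 10 genes (rows) in each comparison within a population (columns), on the log2(FPKM + 1) scale; boxes with a number mark limma adjusted p under 0.05 and grey marks genes below the filter on low values. Xbp1 is boxed in PT, endothelial and stromal cells, whereas Hsp90b1 and Calr are boxed only in stromal cells and no gene is boxed in macrophages.

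Among the chaperone genes, Hspa5 (chr2:34771970-34777547 on GRCm38, plus strand) encodes BiP, the HSP70 chaperone of the ER that also holds the UPR sensors inactive. Its group means ran from 103 FPKM in PT sham to 342 FPKM in stromal UUO, a ratio of 3.32. In stromal sham samples it had 217, 298, 203 and 92.7 FPKM, in UUO 297, 302, 303 and 465 FPKM, and in rUUO 365, 384, 201 and 351 FPKM. The UUO values were all above 3 of the 4 sham values, but the lowest, 297 FPKM, lay just under the highest sham value of 298 FPKM. The change between these groups had an adjusted p of 0.0515 and did not pass. It passed with TPM scaling, with a log2 change of 0.95 and an adjusted p of 0.0414, without stromal sham 2, with 1.06 and 0.0207, and in the fit of all 4 populations, with an adjusted p of 0.0217. In rUUO against sham it passed without every sample numbered 4, with a log2 change of 0.63 and an adjusted p of 0.0366, and without stromal rUUO 4 or stromal sham 2. In PT cells Hspa5 had 124, 139 and 45.7 FPKM in sham, 105, 87.5, 117 and 132 FPKM in UUO and 143, 97.5 and 91.4 FPKM in rUUO. The 3 groups overlapped fully, and the spread between sham samples was larger than any difference between group means. In macrophages all samples lay between 210.2 and 340.0 FPKM, and in endothelial cells between 85.0 and 181 FPKM.

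Hsp90b1 (chr10:86690209-86705509, minus strand) encodes GRP94, the HSP90 chaperone of the ER, which folds integrins and Toll-like receptors among others. It was the most abundant of the 10 genes in every group. In stromal cells it had 447, 490.1, 339 and 289 FPKM in sham, 816, 722, 582 and 904 FPKM in UUO and 706, 786, 471 and 731 FPKM in rUUO. Every UUO value was above every sham value, and of the rUUO values only that of the sample numbered 4 lay within the sham range. UUO raised it by 0.96 on the log2 scale (SE 0.21, adjusted p = 0.00263), from 391 ± 93.3 to 756 ± 138 FPKM (SD, n = 4 each). In rUUO it was higher than in sham by 0.79 (SE 0.21, adjusted p = 0.0145), at 673 ± 139 FPKM. Under quantile normalization the changes were 0.27 and 0.25, with adjusted p of 0.362 and 0.458. Without stromal sham 4 the second change was 0.65, with an adjusted p of 0.0532. In PT cells its samples ranged from 112 to 258 FPKM, in macrophages from 361 to 470.2 FPKM and in endothelial cells from 275 to 553 FPKM, with overlapping groups in each. The GENCODE gene annotation lists 1810014B01Rik on the other strand and Gm15344 and Gm25745 on the same strand within its span. Reads shared with them cannot be told apart here.

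Calr (chr8:84841850-84846934, minus strand) encodes calreticulin, the calcium-binding chaperone that folds glycoproteins. Stromal sham samples had 170.1, 192, 201 and 95.2 FPKM, UUO samples 355, 229, 214 and 295 FPKM, and rUUO samples 258, 307, 221 and 330 FPKM. Neither obstructed nor reversed samples overlapped with sham, and they overlapped with each other. The log2 change from sham was 0.75 in UUO (SE 0.24, adjusted p = 0.0267) and 0.80 in rUUO (SE 0.24, adjusted p = 0.0282). Leaving out stromal sham 4, the lowest sample, reduced them to 0.51 (adjusted p = 0.0809) and 0.56 (adjusted p = 0.0834). The UUO call was also lost without stromal UUO 1 or 4, and the rUUO call without stromal rUUO 1, 2 or 6. Without every sample numbered 4 the changes were 0.47 (adjusted p = 0.144) and 0.66 (adjusted p = 0.0631). PT samples had mean Calr levels of 124 ± 45.2, 113 ± 6.61 and 122 ± 35.1 FPKM after sham, UUO and rUUO surgery (SD, n = 3, 4 and 3). Its macrophage samples lay between 179 and 258 FPKM and its endothelial samples between 96.2 and 214 FPKM. Over the 12 group means, Calr and Hspa5 followed each other with r = 0.98 on the log2 scale, a description over values from the same 44 libraries.

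Dnajb9 (chr12:44205559-44210326, minus strand) encodes ERdj4, a co-chaperone of BiP. Its levels were lower, from 3.54 to 22.5 FPKM over all samples, and limma called it in no comparison within a population. In stromal cells the 4 rUUO samples had 19.9, 13.9, 18.1 and 16.4 FPKM, all above the sham samples at 10.1, 11.2, 12.6 and 9.64 FPKM, with an adjusted p of 0.0512. This comparison passed with no filter, with TPM scaling, in the fit of all 4 populations and without stromal rUUO 2, with log2 changes of 0.60 to 0.69 and adjusted p of 0.0230 to 0.0483. The 4 stromal UUO samples, at 12.7 to 14.1 FPKM, were also all above sham. Endothelial means were 19.0 ± 2.27, 15.4 ± 6.03 and 19.3 ± 1.52 FPKM for sham, UUO and rUUO (SD, n = 4, 3 and 4).

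**Figure D2:**
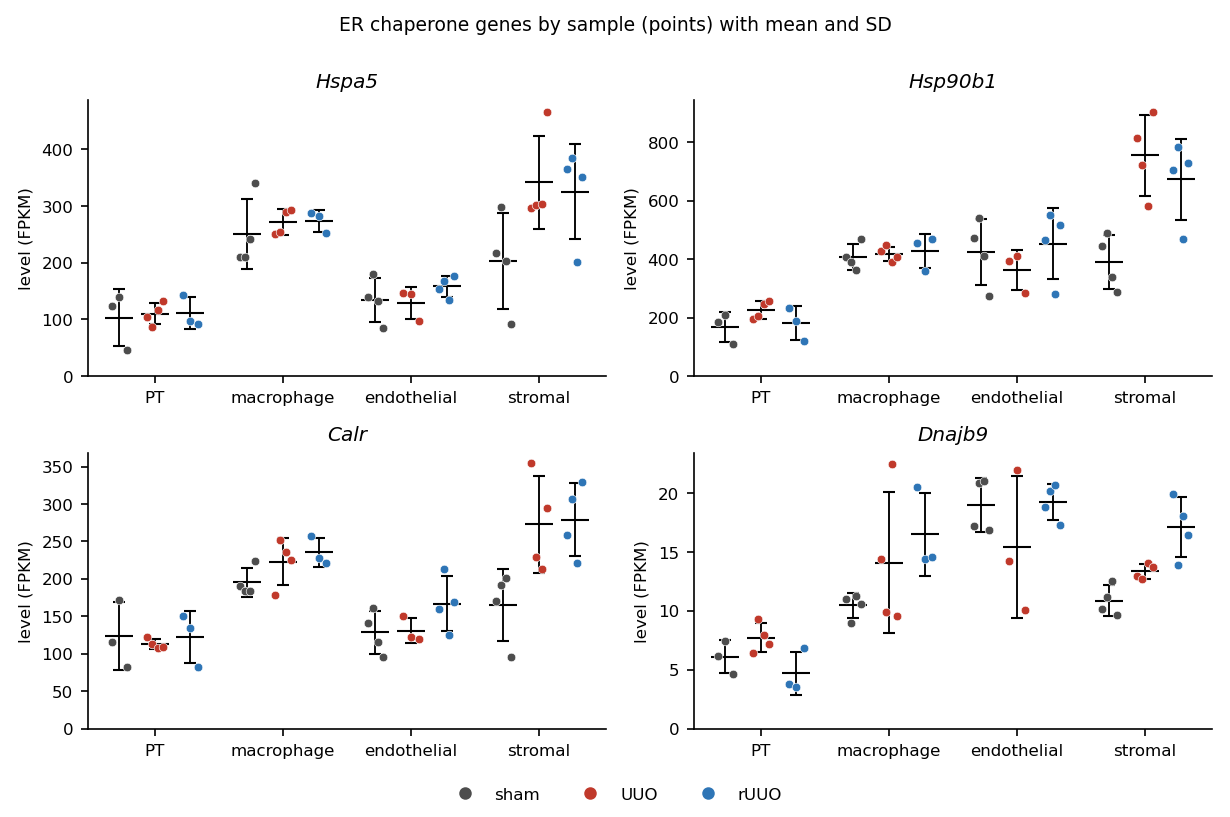
FPKM of the chaperone genes Hspa5, Hsp90b1 and Calr and the co-chaperone gene Dnajb9 in each sample (points), by population and surgery, with the mean (horizontal line) and SD (bars). Stromal UUO samples of Hsp90b1 lie between 582 and 904 FPKM, above all 4 stromal sham samples, while PT, macrophage and endothelial groups overlap.

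Among the transcription factor genes, Xbp1 (chr11:5520659-5525893, plus strand), the substrate of IRE1, was the one called most often. PT sham samples had 16.2, 23.3 and 13.5 FPKM, UUO samples 50.7, 39.6, 51.3 and 48.5 FPKM, and rUUO samples 27.7, 23.9 and 21.6 FPKM. All UUO values were above all sham and rUUO values, whereas rUUO and sham overlapped. The rise in UUO was 1.41 on the log2 scale (SE 0.22, adjusted p = 0.000306), and the adjusted p stayed between 1.79e-08 and 0.00777 under all alternatives. In rUUO it fell by 0.93 from UUO (SE 0.22, adjusted p = 0.0342), a call that was lost without any 1 of 6 PT libraries. In rUUO the mean was 24.4 ± 3.09 FPKM (SD, n = 3) against 17.6 ± 5.07 FPKM in sham (SD, n = 3), with an adjusted p of 0.263.

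In endothelial cells Xbp1 had 45.3, 33.6, 40.4 and 43.7 FPKM in sham, 83.3, 68.1 and 92.2 FPKM in UUO and 85.3, 78.7, 72.1 and 73.0 FPKM in rUUO. No UUO or rUUO value overlapped with sham, and UUO and rUUO overlapped with each other. The log2 change was 0.97 in UUO (SE 0.19, adjusted p = 0.0113) and 0.91 in rUUO (SE 0.17, adjusted p = 0.0111). Without endothelial UUO 1 the UUO call was lost at 0.95 (adjusted p = 0.0590), and without every sample numbered 4 at 0.91 (adjusted p = 0.0501). In stromal cells it had 59.7, 65.7, 60.5 and 47.6 FPKM in sham, 67.1, 81.0, 97.6 and 91.4 FPKM in UUO and 98.4, 91.3, 97.6 and 80.4 FPKM in rUUO. These changes were smaller, 0.52 in UUO (SE 0.17, adjusted p = 0.0322) and 0.65 in rUUO (SE 0.17, adjusted p = 0.0130), again without overlap with sham. The UUO call was lost, at adjusted p of 0.0532 to 0.0947, without any 1 of 5 libraries, namely stromal sham 1 and 4 and stromal UUO 2, 3 and 4. Without every sample numbered 4 both stromal calls were lost, at 0.38 (adjusted p = 0.197) in UUO and 0.53 (adjusted p = 0.109) in rUUO. Macrophage samples went from 59.7 to 78.7 FPKM in sham, from 50.2 to 64.7 FPKM in UUO and from 58.0 to 61.5 FPKM in rUUO.

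Atf4 (chr15:80255184-80257540, plus strand), whose translation rises when PERK is active, had 12.7, 14.3 and 7.76 FPKM in PT sham and 31.6, 18.9, 28.1 and 28.2 FPKM in PT UUO. PT rUUO samples had 11.7, 10.1 and 16.9 FPKM. Every UUO sample was above every sham and rUUO sample. The log2 change was 1.15 in UUO against sham (SE 0.27, adjusted p = 0.00559), and 0.88 with an adjusted p of 0.0559 without the samples numbered 4. rUUO against UUO had an adjusted p of 0.0563 and did not pass; with TPM scaling it fell by 1.06 (adjusted p = 0.0478). In stromal cells the levels were 58.2, 38.6, 32.4 and 49.8 FPKM in sham, 90.0, 88.4, 86.5 and 57.1 FPKM in UUO and 66.1, 61.2, 69.0 and 64.4 FPKM in rUUO. Stromal UUO 4 lay within the sham range and the other 3 UUO samples above it, and the change was 0.84 (SE 0.20, adjusted p = 0.00598). It was the one stromal call that held under every alternative, with adjusted p between 0.00203 and 0.0429. Endothelial Atf4 means were 60.8 ± 9.44, 87.2 ± 12.5 and 69.8 ± 3.76 FPKM for sham, UUO and rUUO (SD, n = 4, 3 and 4), with all 3 UUO values above sham and an adjusted p of 0.217. Macrophage samples ran from 28.5 to 74.8 FPKM with overlap between all surgeries.

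Atf6 (chr1:170704674-170867771, minus strand), the gene of the sensor that is itself a transcription factor, had 5.48, 5.89 and 4.65 FPKM in PT sham, 7.97, 11.2, 10.1 and 8.87 FPKM in PT UUO and 3.82, 3.92 and 5.76 FPKM in PT rUUO. UUO samples were above all others. It rose by 0.73 on the log2 scale in UUO (SE 0.25, adjusted p = 0.0358) and fell by 0.95 from UUO to rUUO (SE 0.25, adjusted p = 0.0488). Both calls were unstable. The rise had adjusted p from 0.0212 to 0.644 over the alternatives, with 0.18 and 0.644 under quantile normalization, and was lost without any 1 of 6 of the 7 libraries compared, PT UUO 1 being the one it did not depend on. The fall had adjusted p from 0.0193 to 0.153 and was lost without any 1 of the 7 libraries. In macrophages it had 53.8 to 60.2 FPKM in sham, 40.1 to 49.7 FPKM in UUO and 33.7 to 45.8 FPKM in rUUO. Both obstructed and reversed macrophage samples were below all sham samples, with adjusted p of 0.291 and 0.120. In stromal cells the rUUO samples, at 16.5 to 19.0 FPKM, were above all UUO and sham samples, at 7.13 to 14.99 and 9.71 to 14.7 FPKM, and no adjusted p passed.

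Ddit3 (chr10:127290774-127296288, plus strand) encodes CHOP, a factor that promotes cell death under lasting ER stress, and was called in no comparison within a population with the settings used throughout, although some alternatives called it. PT samples had 5.28, 4.25 and 1.37 FPKM in sham, 13.5, 5.04, 5.54 and 6.75 FPKM in UUO and 6.59, 1.07 and 5.23 FPKM in rUUO. The lowest UUO value was below the highest sham value, and the highest came from PT UUO 1 alone. Stromal samples had 24.3, 19.9, 22.2 and 15.6 FPKM in sham, 16.1, 12.7, 6.45 and 6.97 FPKM in UUO and 27.7, 14.6, 33.2 and 7.90 FPKM in rUUO. Mean levels were 20.5 ± 3.74 FPKM in sham and 10.5 ± 4.65 FPKM in UUO (SD, n = 4 each), with 1 overlapping value and an adjusted p of 0.0775. Without stromal UUO 1, its log2 change was -1.19 with an adjusted p of 0.0447. Without mitochondrial genes the change was also -1.19 in log2, with an adjusted p of 0.0349. In PT cells UUO against sham passed in the fit with the replicate number as a block, with a log2 change of 1.23 and an adjusted p of 0.0358. Within its span the GENCODE gene annotation also lists Mars and Gm4189 on the other strand and another model of Ddit3. The use of strand in counting is not given in the sources used here, so that their reads cannot be told apart.

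**Figure D3:**
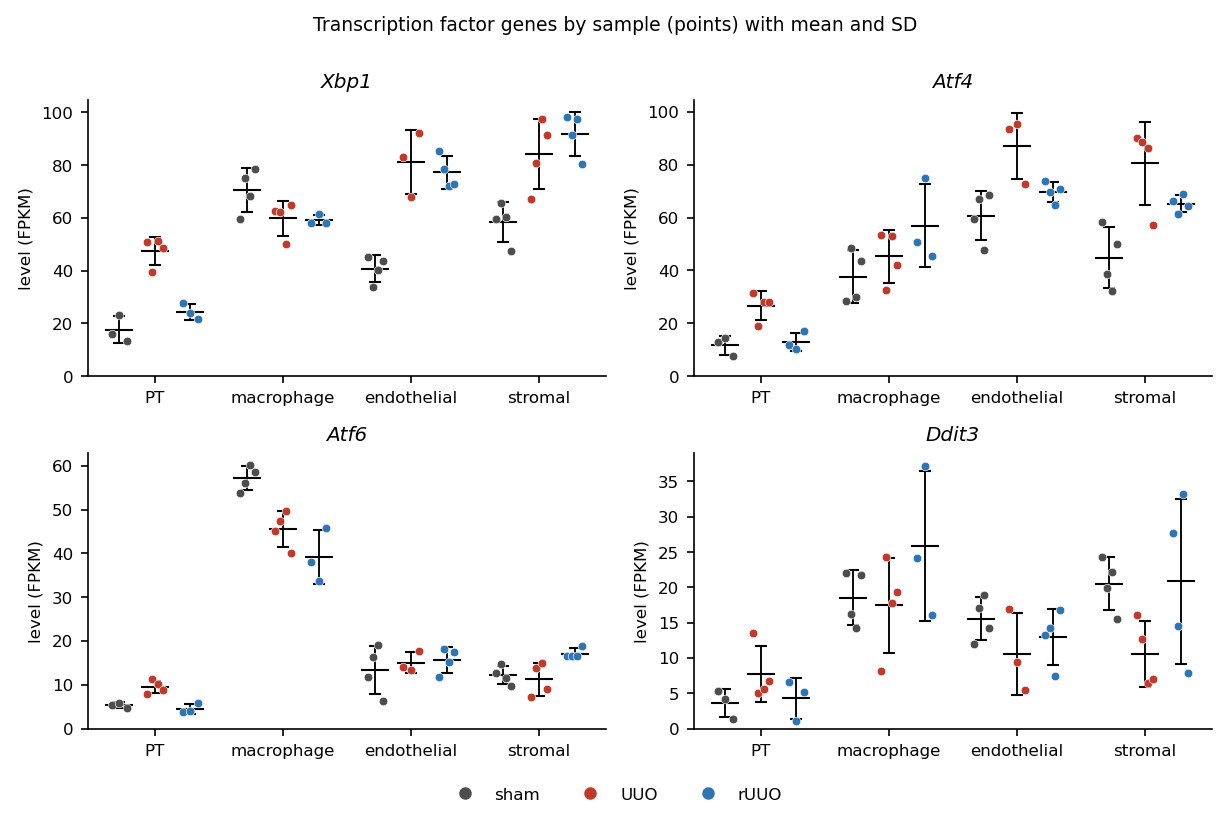
FPKM of the transcription factor genes Xbp1, Atf4, Atf6 and Ddit3 in each sample (points), by population and surgery, with the mean (horizontal line) and SD (bars). Xbp1 in the 4 PT UUO samples lies between 39.6 and 51.3 FPKM, above the PT sham and rUUO samples, and Atf6 is highest in macrophages.

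Herpud1 (chr8:94386438-94395377, plus strand), an ER membrane protein that helps to degrade misfolded proteins, went the other way from Xbp1 in PT cells. It had 25.5, 37.0 and 20.0 FPKM in sham, 11.7, 15.4, 18.3 and 16.3 FPKM in UUO and 19.0, 15.2 and 16.4 FPKM in rUUO. All UUO and rUUO values were below all sham values. The fall in UUO was 0.77 on the log2 scale (a change of -0.77, SE 0.25, adjusted p = 0.0273), and without PT sham 2, its highest sample, the change was -0.54 with an adjusted p of 0.130. The call was also lost without PT sham 1 (adjusted p = 0.0609) or PT UUO 1 (adjusted p = 0.0709). rUUO against sham had an adjusted p of 0.173. In macrophages it had 67.0, 54.3, 64.5 and 59.8 FPKM in sham, 53.7, 28.6, 37.7 and 34.5 FPKM in UUO and 50.9, 43.7 and 39.9 FPKM in rUUO. Again no UUO or rUUO sample reached the sham range, with an adjusted p of 0.0645 in UUO against sham. That comparison passed with quantile normalization (log2 change -0.83, adjusted p = 0.0246) and without macrophage UUO 1 (-0.86, adjusted p = 0.0258). Stromal samples had 14.8, 15.3, 8.82 and 13.96 FPKM in sham and spread widely in UUO, at 7.17, 32.0, 15.5 and 39.1 FPKM, with 28.4, 36.2, 13.95 and 26.4 FPKM in rUUO. Endothelial samples lay between 11.7 and 28.2 FPKM.

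Trib3, the gene of a pseudokinase that ATF4 and CHOP induce (chr2:152337422-152344032, minus strand), was at or near 0 in most samples. Its mean over all samples of a population reached 1 FPKM in endothelial cells alone, and there it passed the filter through its UUO samples. Endothelial samples had 0.10, 0.04, 0.73 and 1.75 FPKM in sham, 0.82, 3.29 and 11.3 FPKM in UUO and 1.74, 1.99, 0.66 and 0.80 FPKM in rUUO. The highest value was that of endothelial UUO 4, the groups overlapped, and the adjusted p was 0.217 for UUO against sham. In PT cells all values were at most 0.15 FPKM, in macrophages 9 of 11 samples were listed at 0 and the highest had 0.45 FPKM, and in stromal cells they ran from 0 to 2.44 FPKM.

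**Figure D4:**
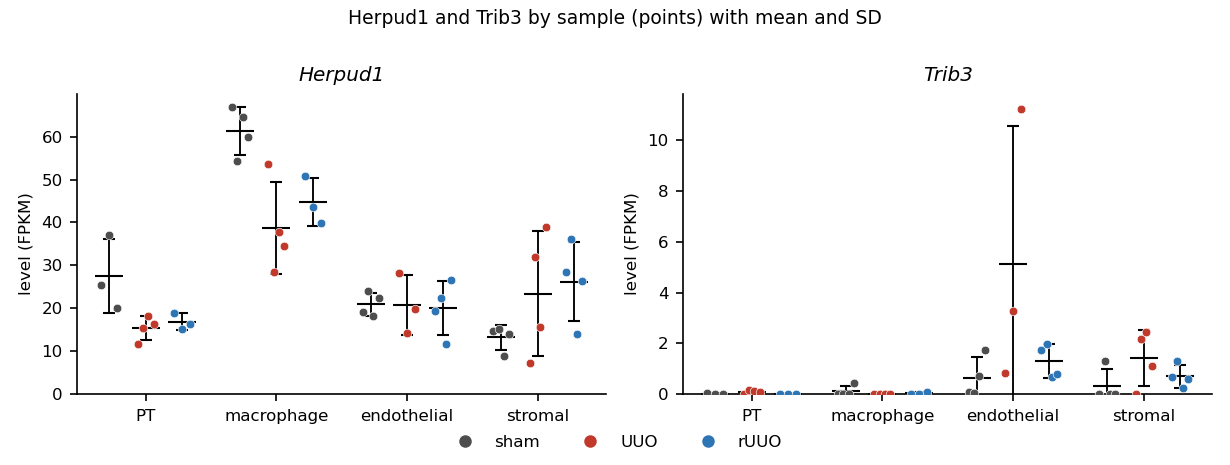
FPKM of Herpud1 and Trib3 in each sample (points), by population and surgery, with the mean (horizontal line) and SD (bars). Herpud1 is above 54 FPKM in all 4 macrophage sham samples and lower in every macrophage UUO and rUUO sample, and Trib3 exceeds 3 FPKM only in 2 endothelial UUO samples.

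In sham kidneys the order of the populations differed between the genes, and PT cells were lowest in all but Herpud1. The pairs of sham groups were tested with limma over all 44 samples and 14332 genes. Between PT cells and macrophages 9 of 9 members differed, where 61.7% of all genes did. The numbers for PT against endothelial and stromal cells were 6 and 8 of 9, where 60.6% and 65.5% of all genes differed. Mitochondrial genes took most of the FPKM sum of PT cells, and the median gene had a log2 difference of -0.84, -0.92 and -1.05 in PT cells against macrophages, endothelial and stromal cells. Without mitochondrial genes 3 members differed between PT cells and macrophages, where 3663 of 17103 genes were higher and 4415 lower. Calr and Dnajb9 then pointed the other way, as they did with quantile normalization. With quantile normalization Atf6 also turned in PT against endothelial and stromal cells, and Dnajb9 in PT against stromal cells.

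Between the other populations, 7 of 9 members differed in macrophages against endothelial cells, 2 in macrophages against stromal cells and 2 in endothelial against stromal cells, where 43.4%, 46.2% and 23.7% of all genes did. Atf6 set macrophages apart, with 57.2 ± 2.80 FPKM against 13.4 ± 5.52 in endothelial cells, 12.2 ± 2.09 in stromal cells and 5.34 ± 0.632 in PT cells (SD, n = 4, 4, 4 and 3). The log2 difference from endothelial cells was 2.11 (adjusted p = 1.39e-10), and endothelial and stromal cells did not differ beyond their spread (adjusted p = 0.937). Herpud1 was also highest in macrophages, at 61.4 ± 5.59 FPKM, followed by PT cells at 27.5 ± 8.68 (difference 1.17, adjusted p = 0.00326), endothelial cells at 20.9 ± 2.73 and stromal cells at 13.2 ± 2.98. Neither of the last neighbouring pairs differed. Xbp1 decreased in order from macrophages, 70.5 ± 8.37 FPKM, over stromal cells, 58.4 ± 7.66, and endothelial cells, 40.8 ± 5.16, to PT cells. Macrophages and stromal cells did not differ (adjusted p = 0.154), and endothelial cells differed from stromal cells (adjusted p = 0.0121) and from PT cells (adjusted p = 8.86e-08). Atf4 was highest in endothelial cells and Dnajb9 too, the latter at 19.0 FPKM against 10.9 FPKM in stromal cells (difference 0.75, adjusted p = 0.00850). For Hsp90b1 and Ddit3 the 3 populations above PT cells did not differ from their neighbours, and for Hspa5 and Calr no neighbouring pair did.

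The changes with UUO were compared between populations by interaction terms of the same fit. Xbp1 rose more in PT cells than in macrophages, by 1.63 on the log2 scale (SE 0.23, adjusted p = 1.24e-06), and more than in stromal cells, by 0.89 (SE 0.23, adjusted p = 0.00255). The change in macrophages was below that in endothelial cells by a difference of -1.20 (SE 0.23, adjusted p = 0.00102) and below that in stromal cells by -0.75 (SE 0.22, adjusted p = 0.0141). The median gene itself had a difference of 0.45, 0.40 and 0.51 in PT cells against macrophages, endothelial and stromal cells. With macrophages 1963 genes were higher and 253 lower, and with stromal cells 3298 and 883. With quantile normalization these medians were -0.04 each, and 1 member passed with macrophages and 2 with stromal cells. Between PT and endothelial cells 0 of 9 members differed in their change, where 11.1% of all genes did. At an unadjusted p under 0.05 there were 1 member and 3527 of all 14332 genes. PT cells and macrophages differed in 2 members, Xbp1 and Atf6 (1.05, SE 0.32, adjusted p = 0.0232), where 15.5% of all genes differed. PT and stromal cells differed in 4 members, where 29.2% of all genes did. Beside Xbp1 these were Ddit3 (1.90, SE 0.60, adjusted p = 0.0151), Atf6 (0.88, SE 0.32, adjusted p = 0.0376) and Herpud1 (-1.33, SE 0.47, adjusted p = 0.0284). Ddit3 thus differed between the changes of PT and stromal cells although neither change passed with the settings used throughout, its mean being higher in UUO in PT cells and lower in stromal cells. Macrophages and endothelial cells differed in 1 member and 2.31% of all genes. Macrophages and stromal cells differed in 2 members, Xbp1 and Hsp90b1 (-0.92, SE 0.32, adjusted p = 0.0410), and 16.2% of all genes. Endothelial and stromal cells differed in 1, Hsp90b1 (-1.16, SE 0.33, adjusted p = 0.0144), and 13.1% of all genes. Each of these 10 differences kept its sign under the other scalings and without every sample numbered 4. Those of Atf6 with macrophages and of Ddit3 were lost without PT sham 4, at 0.97 (adjusted p = 0.0672) and 1.48 (adjusted p = 0.0827), and that of Hsp90b1 between endothelial and stromal cells without endothelial UUO 4, at -0.99 (adjusted p = 0.0617). The remaining differences of Atf6, Herpud1 and Hsp90b1 were each lost without any 1 of 8, 5 and 11 libraries. The difference of Xbp1 between macrophages and stromal cells was lost without mitochondrial genes, at -0.58 (adjusted p = 0.0648), and without every sample numbered 4, at -0.59 (adjusted p = 0.134). Without the samples numbered 4, those that still passed were the Xbp1 differences of PT cells with macrophages and stromal cells and of macrophages with endothelial cells, the Hsp90b1 difference of endothelial and stromal cells, and, newly, Hspa5 in PT against stromal cells (-0.70, adjusted p = 0.0416). Among differences that did not pass, Atf4 in PT cells against macrophages (adjusted p = 0.0539) passed under 9 alternatives, Calr in PT against stromal cells (adjusted p = 0.0505) under 8, and Herpud1 in macrophages against stromal cells under 6.

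The other genes of the pathway, 90 in all, were taken from lists by function. In UUO against sham, limma called 20 of 78 tested higher and 4 lower in PT cells, 3 of 80 higher in macrophages, 3 of 83 higher in endothelial cells and 31 of 85 higher in stromal cells, with 0 lower in the latter 3. Among all genes tested, 27.9% were higher in PT cells, 2.86% in macrophages, 1.28% in endothelial cells and 13.4% in stromal cells, so that the PT share of the pathway was no larger than that of all genes. Their median log2 change was 0.34 in PT cells, below the 0.51 of all genes, and 0.51 in stromal cells, above the -0.07 of all genes. In rUUO against sham, 6, 6, 4 and 31 were higher in PT cells, macrophages, endothelial and stromal cells, and 0 were lower, where 6.52%, 1.89%, 1.4% and 11.6% of all genes were higher.

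In stromal cells 9 of 16 ER chaperones and folding enzymes, 8 of 13 genes of ER translocation and transport and 7 of 15 genes of ER-associated degradation were higher in UUO, and 0 lower, where 13.4% of all genes were higher and 13% lower. P4hb, a protein disulphide isomerase and subunit of the collagen hydroxylase, went from 87.9 ± 13.2 to 301 ± 52.3 FPKM (log2 change 1.76, SE 0.16, adjusted p = 1.26e-06). Pdia6, another disulphide isomerase, rose by 1.33 (adjusted p = 0.000117). Sec24d, a coat protein of vesicles leaving the ER, rose from 13.3 ± 2.59 to 54.9 ± 14.2 FPKM (1.95, SE 0.23, adjusted p = 1.12e-05), and Ssr2, of the translocon, by 1.66 (adjusted p = 0.000130). Among the degradation genes Ube2g2, a ubiquitin-conjugating enzyme, rose by 1.36 (adjusted p = 0.00102) and Syvn1, the ubiquitin ligase HRD1, by 1.24 (adjusted p = 0.000786). Of the sensors and activators, Creb3l1, an ER-bound factor that activates collagen genes, rose by 2.29 (SE 0.34, adjusted p = 0.000127), 1 of 10 tested. The stromal marker list summed to 1168 to 2270 FPKM in sham and 6027 to 9741 FPKM in UUO. Thick ascending limb markers summed to 260 to 335 and 28.7 to 54.2, and podocyte markers to 121 to 209 and 35.65 to 106 FPKM. Neutrophil markers summed to 0.32 to 1.13 and 8.61 to 57.4, and T cell markers to 0.06 to 1.69 and 3.31 to 29.4 FPKM. Marker levels of these samples thus moved with the pathway genes. Their part in these changes was not tested.

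In PT cells the ATF4 and integrated stress response targets split, with 8 of 18 higher in UUO and 4 lower, where 27.9% of all genes were higher and 4.91% lower. The lower genes were Slc3a2, Psat1, Shmt2 and Psph. Nupr1, a stress-induced nuclear protein, had 3.78 ± 2.93 FPKM in sham and 59.8 ± 21.9 FPKM in UUO (SD, n = 3 and 4, log2 change 3.78, adjusted p = 4.83e-05). Asns, asparagine synthetase, had 0.113 ± 0.0709 and 8.70 ± 4.19 FPKM (2.98, adjusted p = 0.000103). Shmt2, the mitochondrial serine hydroxymethyltransferase, went from 73.6 ± 16.2 to 27.9 ± 2.40 FPKM (-1.34, SE 0.20, adjusted p = 0.000200). Psat1 and Psph, of serine synthesis, and the amino acid transporter subunit gene Slc3a2 fell with it. The counts of the next lists are to be read against the same 27.9%. The chaperone list had 4 of 16 higher, among them Ppib, a prolyl isomerase (0.86, adjusted p = 0.00215), and Uggt1, which checks the folding of glycoproteins (0.90, adjusted p = 0.0189). Of 15 degradation genes, 2 were higher, Ube2g2 (0.87, adjusted p = 0.0232) and Vcp (0.67, adjusted p = 0.0157), as was 1 of 13 translocation genes, Sec61b (0.60, adjusted p = 0.0402). Nfe2l2, the antioxidant factor NRF2 that PERK can phosphorylate, rose by 2.10 (adjusted p = 1.68e-06) and Creb3 by 0.76 (adjusted p = 0.0322), 2 of 9 sensors and activators. Of the other eIF2alpha kinases, 1 of 2 was higher, Eif2ak2 (1.32, adjusted p = 0.00459). Of the apoptosis genes, 2 of 5 were, Bak1 (1.28, adjusted p = 0.0183) and Bcl2 (1.09, adjusted p = 0.0238).

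In macrophages 2 of 18 ATF4 targets were higher in UUO, Gdf15, from 0.0375 ± 0.0750 to 2.21 ± 1.44 FPKM (adjusted p = 0.0441), and Atf3 (0.90, adjusted p = 0.0372), with 1 of 13 translocation genes, Sec63, where 2.86% of all genes were higher. In endothelial cells Atf3 (1.82, adjusted p = 0.00339) and Ddit4 (1.80, adjusted p = 0.0467) were higher, 2 of 19, together with Tnfrsf10b, the death receptor gene that CHOP can induce (2.17, SE 0.28, adjusted p = 0.000592), 1 of 8 apoptosis genes, where 1.28% of all genes were higher. In stromal cells 4 of 21 ATF4 targets were higher, where 13.4% of all genes were, led by Slc7a5 (2.12, adjusted p = 0.000366) and Asns (1.75, adjusted p = 0.00553). There 1 of 3 other eIF2alpha kinases, Eif2ak1 (0.67, adjusted p = 0.0279), and 1 of 7 apoptosis genes, Bak1 (1.16, adjusted p = 0.00144), were also higher.

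**Figure D5:**
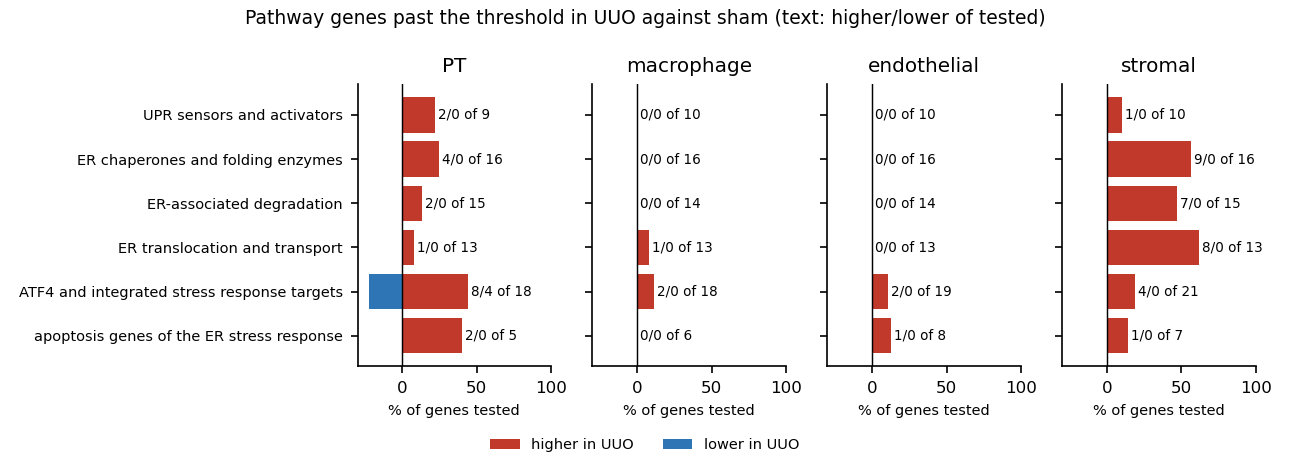
Share of the pathway genes tested (x axis, percent) that were higher (red) or lower (blue, to the left) in UUO than in sham by limma, for the main lists (rows) in each population (panels), with the counts beside the bars. The stromal panel has 8 of 13 translocation genes and 9 of 16 chaperone genes higher, and the PT panel has 8 ATF4 targets higher and 4 lower of 18.

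A list of 11 immediate early and heat shock genes, which can be induced while tissue is dissociated, moved with surgery as well. In UUO against sham 10 of 11 were higher in PT cells, 5 in macrophages, 4 in endothelial cells and 7 in stromal cells, where 27.9%, 2.86%, 1.28% and 13.4% of all genes were higher. In rUUO against sham the numbers were 8, 6, 9 and 9, where 6.52%, 1.89%, 1.4% and 11.6% of all genes were higher. In PT cells their summed level was 38.4 to 95.7 FPKM in sham, 216 to 283 FPKM in UUO and 191 to 262 FPKM in rUUO. In stromal cells it was 210 to 258 FPKM in sham, 583 to 1080 FPKM in UUO and 674 to 1301 FPKM in rUUO. Endothelial sums were, in the same order, 222 to 269, 433 to 507 and 629 to 863 FPKM. Those of macrophages were 463 to 583, 687 to 1048 and 1306 to 1472 FPKM. Atf3 stands on both this list and that of ATF4 targets. In PT cells the PT markers summed to 1691 to 2302 FPKM in sham and 469 to 640 FPKM in UUO, while thick ascending limb markers summed to 20.8 to 24.4 and 144 to 186 FPKM and collecting duct markers to 15.3 to 20.9 and 79.8 to 94.5 FPKM. Plasma cell markers, of interest because plasma cells are rich in Xbp1, summed to 1.30 to 6.88 FPKM in PT sham and 6.12 to 10.1 FPKM in PT UUO. In PT rUUO they summed to 8.37 to 10.7 FPKM. Jchain and Mzb1 were at 0 in every PT UUO and PT rUUO library, so that these sums came from the other markers of the list. In stromal cells the sums were 38.6 to 46.15 FPKM in sham and 37.2 to 133 FPKM in UUO. There Mzb1 and Tnfrsf17 were at 0 in every UUO library, and Tnfrsf17 in every sham library. The stromal UUO sums thus also came from the other markers of the list. The part of dissociation and of these markers in the PT and stromal changes was not tested.

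Over the 12 group means and 14332 genes, the genes most like Xbp1 on the log2 scale were Morc2a, Tnpo2 and Rnf41 (Pearson's r 0.97, 0.96 and 0.96). For Atf4 they were Arf1, Cggbp1 and Zswim4 (0.99, 0.98 and 0.98), for Hspa5 Tmem119, Itgb5 and Egr2 (0.98, 0.98 and 0.97), and for Ddit3 Senp7, Rnf166 and Elmo2 (0.97, 0.96 and 0.96). Among the 10 genes themselves, leaving out Trib3, Calr and Hspa5 were the most alike pair (0.98), followed by Atf4 and Dnajb9 (0.92) and by Atf4 and Xbp1 (0.89). For Herpud1, r ranged from 0.04 with Atf4 to 0.79 with Atf6. All these points come from the same libraries and scaling.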

How the data were processed

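RNA of FACS-sorted cells was amplified with the Ovation RNA-Seq System V2. The authors deposited 1 table of FPKM per gene, rounded to 2 decimals, on GRCm38; the submitters' processing notes name Bowtie2 and RSEM with no role or order. Of 46 value columns, 44 were used; 2 columns with the same name could not be assigned to samples, and no column is named for PT sham 3. A PT sample whose title holds both surgery words was placed with UUO from the treatment it is labelled with. The 10 members and the lists were chosen with earlier results of these data known.

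For each population, limma (lmFit, and eBayes with trend) was fitted to log2(FPKM + 1) of its samples of all 3 surgeries, leaving out genes whose mean was under 1 FPKM, with Benjamini-Hochberg adjustment over all genes and a threshold of 0.05. Fold changes on this scale understate those of low genes. Pairs of sham groups and interactions came from 1 fit of all 44 samples. The fit was run on simulated PT values with independent noise and known changes in some genes. The simulation held no shift in the mitochondrial share, so that calls under such a shift were not tested by it. Log2 changes are printed for members past the threshold and for some that passed it under an alternative. From the lists, the text gives per list the 2 largest rises and the largest fall without overlap between UUO and sham. For Hspa5, Atf4, Ddit3 and Xbp1 the 3 most similar genes over group means are named. Samples of one surgery and population are numbered, but the labels do not say whether numbers mark mice, so that p-values measure the spread between these samples. Over the genes tested, same-numbered samples of a population did not deviate together (median r 0.01, over 0.1 in 1 of 35 pairs). With so few samples this does not exclude pairing, and numbers were used as names. Marker lists of PT cells, macrophages, endothelial and stromal cells, plasma cells, collecting duct and thick ascending limb were summed per library. So were those of podocytes, neutrophils, T cells and B cells. Alternatives were a pseudocount of 0.1, no filter, TPM, mitochondrial genes left out, quantile normalization, a fit of all populations, replicate blocks and each replicate left out. The tools were limma 3.58.1 in R 4.3.3, and pandas 2.3.3, matplotlib 3.10.9, numpy 2.4.6 and scipy 1.17.1 in Python 3.11.15.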

Additional observations from a re-analysis of the deposited data

Results flagged for a closer look

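Dixon's criterion was applied in the 8 groups of 4 samples. It set 1 sample apart from the others in 8 of 79 combinations of a gene and a group. The ratio, the gap to the nearest sample over the range, was taken on log2(FPKM + 1), while the levels below are in FPKM. The combinations share libraries and are not independent, and chance gives about 1 in 20. Of these 8, 2 are of Trib3, with the other samples at 0. In stromal UUO, sample 4 had the highest Hspa5, 465 FPKM against 297 to 303 FPKM (gap over range 0.953), and the lowest Atf4, 57.1 FPKM against 86.5 to 90.0 FPKM (0.913). In stromal rUUO, sample 4 had the lowest Hspa5, 201 FPKM against 351 to 384 FPKM (0.859), and sample 6 the highest Atf6, 19.0 FPKM against 16.5 to 16.6 FPKM (0.949). In macrophage UUO, sample 3 had the lowest Xbp1, 50.2 FPKM against 62.4 to 64.7 FPKM (0.854). In stromal sham, sample 3 had the lowest Herpud1, 8.82 FPKM against 13.96 to 15.3 FPKM (0.834). Trib3 was above 0 in 1 sample alone of macrophage sham (0.45 FPKM in sample 4) and of stromal sham (1.32 FPKM in sample 2), which gives a ratio of 1 in both.

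The change with UUO differed between populations in 10 tests of the difference. For Xbp1 the differences were 1.635 between PT cells and macrophages, 0.8886 between PT and stromal cells, -1.203 between macrophages and endothelial cells and -0.7461 between macrophages and stromal cells. For Atf6 they were 1.052 between PT cells and macrophages and 0.8794 between PT and stromal cells. Ddit3 (1.902) and Herpud1 (-1.331) differed between PT and stromal cells. Hsp90b1 differed by -0.9206 between macrophages and stromal cells and by -1.161 between endothelial and stromal cells. Each of these 10 kept its sign under every scaling tried.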

How the results depend on the processing

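No called change within a population and no called difference between the changes of populations turned direction under another scaling, pseudocount or without the samples numbered 4. In sham, PT cells against macrophages turned for Calr (0.46 without mitochondrial genes, 0.25 with quantile normalization) and Dnajb9 (0.37 with each), and with quantile normalization PT against endothelial cells for Atf6 (0.0512) and PT against stromal cells for Dnajb9 (0.47) and Atf6 (0.18). Counts of members called moved as follows, and where no cause is shown by the construction of the alternative, the cause was not tested. For PT rUUO against UUO (2), the count was 1 with a pseudocount of 0.1, 0 with no filter, 0 without mitochondrial genes and 1 with quantile normalization. Quantile normalization gave 1 in macrophage UUO against sham (0), 1 in stromal UUO against sham (4), 0 in stromal rUUO against sham (3), 4, 3 and 5 in sham PT cells against macrophages (9), endothelial (6) and stromal cells (8), 1 and 2 in the difference between PT cells and macrophages (2) and stromal cells (4), and 0 between endothelial and stromal cells (1). Without mitochondrial genes the counts were 0 in stromal rUUO against sham, 3 and 4 in sham PT cells against macrophages and stromal cells, 1 for the difference between PT cells and macrophages and 0 between macrophages and stromal cells (2). With no filter they were 2 for the difference between PT and stromal cells and 1 between macrophages and stromal cells. In the sham comparisons of PT cells the calls over all genes moved too. Of 14332 genes, quantile normalization called 3648 higher and 3690 lower against macrophages, 2964 and 3103 against endothelial and 2998 and 3220 against stromal cells. Of 17103 genes without mitochondrial genes, 3663 were higher and 4415 lower against macrophages, and 1867 and 6479 against stromal cells. TPM and the fit of all 4 populations each gave 5 in stromal rUUO against sham.

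With the replicate number as a block, the count was 0 in PT rUUO against UUO, 0 in both endothelial comparisons with sham (1 each without it) and 1 in stromal rUUO against sham, and no other count moved by over 1.5 times. The labels do not say whether the numbers pair samples, so that it is not known whether this block suits the design. For Hspa5, Hsp90b1 and Calr together, the sample numbered 4 was lowest in 7 of the 12 groups. A block over samples of the same surgery and number in different populations moved no count by as much. Leaving out every sample numbered 4, chosen after seeing the data, gave 2 in PT UUO against sham (Xbp1, Herpud1), 0 in PT rUUO against UUO, 0 in endothelial UUO against sham, 2 in stromal UUO against sham (Hsp90b1, Atf4), 2 in stromal rUUO against sham (Hsp90b1 and, newly, Hspa5, with Xbp1 and Calr lost), and 1, 2 and 0 for the differences between PT cells and macrophages, PT and stromal cells, and macrophages and stromal cells.

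With each replicate left out in turn, counts ranged from 2 to 3 in PT UUO against sham, 0 to 1 in PT rUUO against UUO, 0 to 1 in macrophage and 0 to 1 in endothelial UUO against sham, 2 to 5 in stromal UUO and 1 to 4 in stromal rUUO against sham, and 1 to 3 in sham endothelial against stromal cells. For differences between changes they ranged from 1 to 3 for PT cells and macrophages, 2 to 5 for PT and stromal cells, 1 to 3 for macrophages and stromal cells and 0 to 1 for endothelial and stromal cells. PT UUO against sham fell to 2 without PT sham 1 or 2. Macrophage UUO against sham rose to 1 without macrophage UUO 1, and endothelial UUO against sham fell to 0 without endothelial UUO 1. Stromal UUO against sham fell to 2 without stromal sham 4 or UUO 4, and stromal rUUO against sham to 1 without stromal sham 4. Sham endothelial against stromal cells fell to 1 without endothelial sham 2 or stromal sham 2. The differences fell to 1 for PT cells and macrophages without PT sham 4, to 2 for PT and stromal cells without stromal UUO 4, to 0 for endothelial and stromal cells without endothelial UUO 4, and to 1 for macrophages and stromal cells without macrophage sham 1, 2 or 4, macrophage UUO 3 or 4, stromal sham 3 or 4, or stromal UUO 2 or 4. Depth is unknown without counts, so that counting error at low levels could not be given.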
